A study of Mus musculus with 5 samples.

Results

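Germline and meiosis genes encode the proteins with which germ cells protect their genome, enter meiosis, pair and recombine chromosomes, pack sperm DNA and build the egg coat, and 43 such genes were followed here through the chromatin of striatal neurons. They were chosen for what their products are known to do and were looked up by gene symbol in the authors' lists of enriched regions. The background is the 21031 protein-coding mouse genes for which RefSeq holds a curated transcript, all 43 genes among them. Of the 43 genes, 33 had at least 1 listed region.

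The study mapped H3K4me3, H3K27me3, H3K27ac and RNA polymerase II (Pol II) by chromatin immunoprecipitation and sequencing, with an input library as the control. The nuclei came from the striatum of C57BL/6 mice at 8 weeks of age, without a genetic change or treatment in the labels, and were sorted on NeuN, an antigen of neurons in general, although the labels name the cells medium spiny neurons. There was 1 library per antibody, so no test across samples exists, and the intervals given below cover counting error only and treat genes as independent. Whether nuclei of several animals were pooled is not given in the sources used here. Of 11 neuronal and medium spiny neuron markers, all 11 had H3K4me3, H3K27ac and Pol II regions, against 1 (Mbp) of 16 astrocyte, oligodendrocyte, microglia and endothelial markers. Each list gives regions near transcription start sites with a score over input whose scale is not stated and which is never below 2, and read depth is not known from these lists.

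Germline genes are kept silent in most somatic cells. The best known mechanism is DNA methylation of CpG-rich promoters, which is set up in the embryo together with a variant Polycomb complex, PRC1.6, that carries the DNA-binding proteins E2F6 and MGA with MAX. The canonical Polycomb mark H3K27me3 is laid down by another complex, PRC2. H3K4me3 marks promoters, many of them CpG-rich, and H3K27ac marks active promoters and enhancers. DNA methylation and the mark of PRC1.6 were not measured in this series.

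Most of the germline genes had an H3K27me3 region and few had an active mark. H3K27me3 was listed at 29 of 43 genes (67.4%, exact 95% interval 51.5 to 80.9%), against 42.5% of all protein-coding genes. H3K4me3 was listed at 15 (34.9%, 21 to 50.9%), against 68.4% of all protein-coding genes. H3K27ac was listed at 6 (14.0%, 5.30 to 27.9%), against 51.5%, and Pol II at 5 (11.6%, 3.89 to 25.1%), against 41.7%. H3K27me3 was the sole mark at 18 genes (41.9%), against 18.2% of all protein-coding genes. No region of any antibody was listed for 10 genes (23.3%, 11.8 to 38.6%), against 13.3% of all protein-coding genes, a share inside that interval. Regions of all 4 antibodies were listed at 3 genes (Tdrd1, Tex14 and Tnp2, 6.98%), against 5.93%. Since the lists do not say which transcripts were searched, a gene with no region is counted as unmarked.

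The H3K27me3 regions of these genes were weak ones for the most part. The median score of the 29 genes was 2.96, against 3.59 for all 8929 protein-coding genes with H3K27me3, and 16 of the 29 scored under 3, against 34.2% of all those genes. The median width was 11.1 kb, against 15.9 kb. When only the upper 50% of each list by score was kept, H3K27me3 remained at 10 genes (23.3%), against 25% of all protein-coding genes, so the higher share was seen with the whole list and not with its upper 50%. H3K4me3 then stood at 4 genes (9.30%), against 37.0% of all protein-coding genes, and no region was left at 29 (67.4%), against 38.3%.

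**Figure D1:**
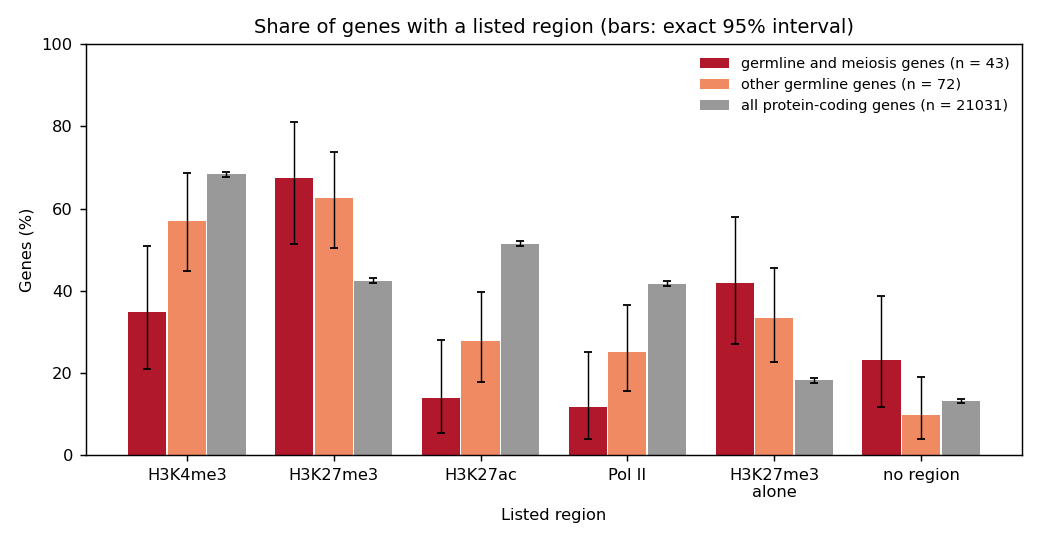
The percentage of genes (vertical axis) with a listed region of each antibody, with H3K27me3 alone or with no region (horizontal axis) for the 43 germline and meiosis genes, 72 other germline genes and all 21031 protein-coding genes, with exact 95% intervals as error bars. H3K27me3 stood at 67.4% of the 43 genes and 42.5% of all genes, and H3K27ac at 14.0% and 51.5%.

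**Figure D2:**
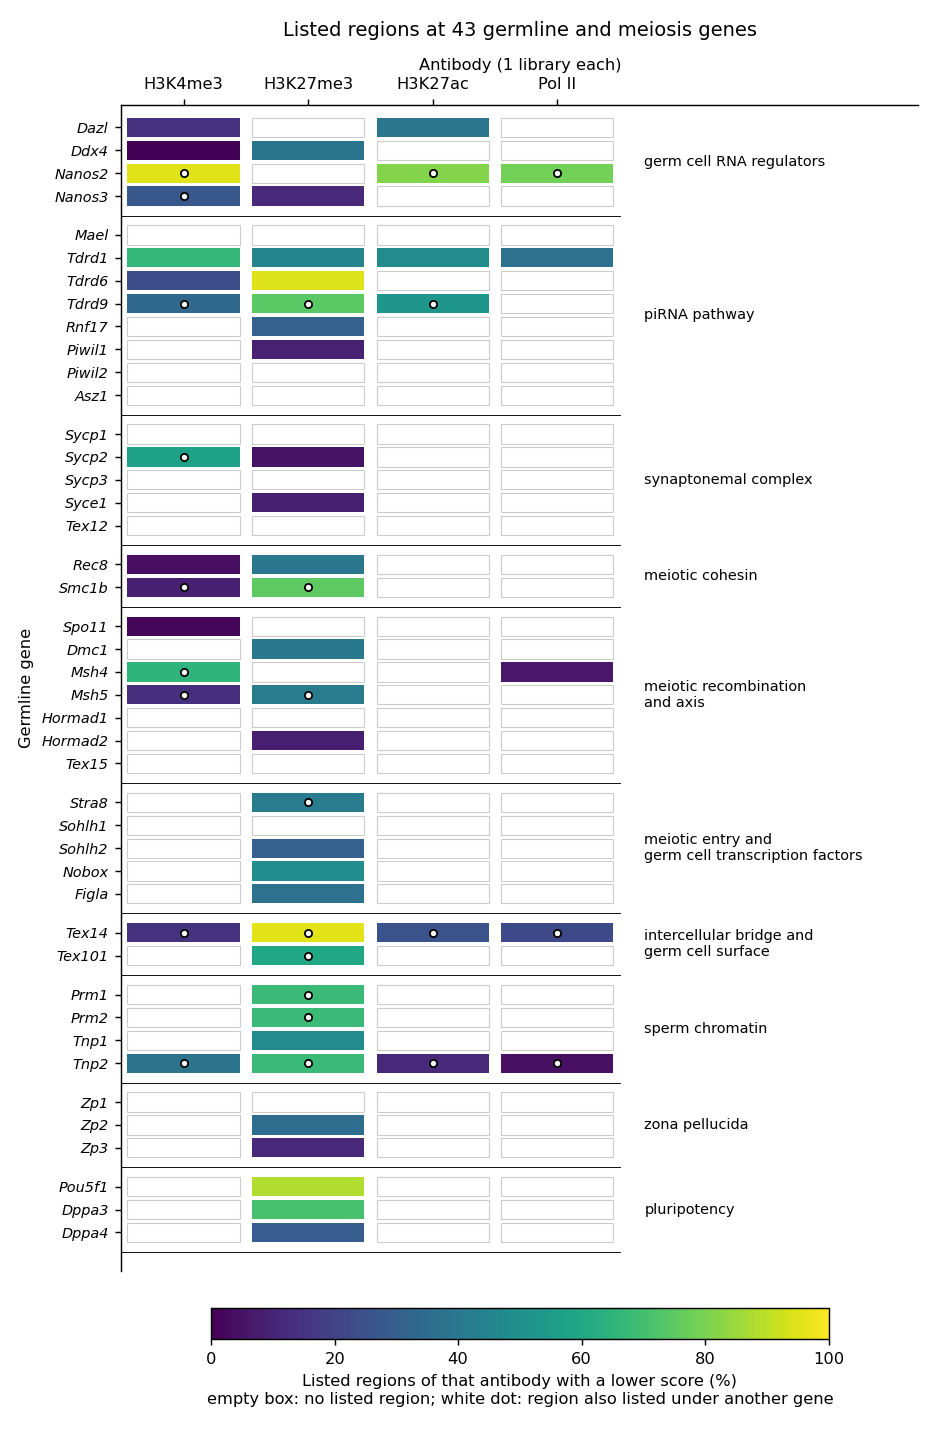
Each row is a germline gene, grouped by role, and each column an antibody, with the colour giving the percentage of that antibody's listed regions that score lower than the gene's best region. An empty box means no listed region and a white dot a region that was also listed under another gene, so the 10 genes with 4 empty boxes and the 18 with H3K27me3 alone can be read off directly.

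The promoters of the genes with no region were richer in CpG dinucleotides than those of the genes with H3K27me3. No test of this difference exists, and the classes hold few genes. RefSeq promoters of 300 bases (250 before to 50 after the gene start, build GRCm38.p6) were matched for 34 of the 43 genes, and Tdrd6, Rnf17, Piwil2, Spo11, Tex15, Zp1, Zp2, Dppa3 and Dppa4 had no entry. The CpG ratio, the observed count of CG dinucleotides over the count expected from the C and G content, had a median of 0.53 in the 24 matched genes with H3K27me3 (0.05 to 1.08) and 0.78 in the 7 matched genes with no region (0.52 to 0.91). Over all protein-coding genes the order was the other way round, with a median of 0.36 in 7066 genes with H3K27me3 and 0.21 in 2254 genes with no region. The difference of the medians, H3K27me3 minus no region, was -0.25 for the germline genes and 0.15 for all genes. A ratio of 0.6 or more, a limit commonly used to define CpG islands, was found in 8 of the 24 germline genes with H3K27me3 and 6 of the 7 with no region, against 31.2% and 10.3% of all protein-coding genes in these classes.

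Promoters were also searched on both strands for TCCCGC, the core of E2F sites including that of E2F6, and for CACGTG, the E-box bound by MGA with MAX. The pair was chosen with values of these genes in view, no other motif was searched, and matches of the pair can share at most 1 base. TCCCGC was present in 12 of 34 germline promoters, against 29.1% of the 16853 protein-coding genes with a promoter in the table. It was found in 7 of 24 germline genes with H3K27me3 and 5 of 7 with no region, against 22% and 8.43% of all protein-coding genes in these classes. CACGTG was present in 11 of 34, against 9.16%, namely in 5 of 24 with H3K27me3 and 6 of 7 with no region, against 7.42% and 4.75%. Both motifs were present in 7 of 34, against 3.68%. These were 2 of 24 with H3K27me3 (Ddx4 and Zp3) and 5 of 7 with no region (Mael, Sycp1, Sycp3, Tex12 and Hormad1), against 2.63% and 0.665%. The germline genes with no region thus held the motifs more often than those with H3K27me3. Each motif contains a CG, so this is not independent of the CpG difference above. Of the 8213 protein-coding genes at or above the CpG ratio limit given above, 498 held both motifs. Of the 233 such genes with no region 12 did, and of the 6 germline genes among these 5 did. Whether the motifs differ between the classes beyond CpG content was not tested. A match describes letters only, since binding was not measured.

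The same values can be read from the promoter to the marks, a view added after the numbers above were seen. Of the 7 germline genes with both motifs, 5 had no region and 6 had no H3K4me3, against 2.42% and 5.16% of the 620 protein-coding genes with both. A CpG ratio of 0.6 or more was found in 15 of 34 germline genes, against 48.7% of all protein-coding genes in the table. Of these 15, 8 had no H3K4me3 (Asz1, Hormad1, Mael, Sycp1, Sycp3, Tex12, Syce1 and Tex101) and 6 had no region, against 3.98% and 2.84% of the 8213 protein-coding genes with such a ratio. CpG-rich promoters carried H3K4me3 almost throughout the genome, and about as many of the CpG-rich germline promoters lacked it as had it. Such a ratio, both motifs and no region were found together in 12 protein-coding genes, and 5 of the 12 were germline genes of this set.

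The promoters shown here let the classes be compared letter by letter, 5′ to 3′ on the strand of the gene, with matches to either motif on either strand in capitals. Tex14 (chr11:87404815-87405114, plus strand) and Pou5f1 (chr17:35505782-35506081, plus strand, the first of 2 entries) are the matched genes with the highest H3K27me3 scores. Asz1 (chr6:18109012-18109311, minus strand) and Hormad1 (chr3:95559427-95559726, plus strand, the first of 2 entries) are the first by alphabet of those with no region. Ddx4 (chr13:112652261-112652560, minus strand), Prm1 (chr16:10796774-10797073, minus strand) and Tex12 (chr9:50561219-50561518, minus strand) were added after their values were seen, as a CpG-rich gene with H3K27me3, a CpG-poor gene with H3K27me3 and a CpG-rich gene with no region. All coordinates in this paragraph are GRCm38.p6 and are not on the scale of the mm9 positions given for the regions.
Tex14: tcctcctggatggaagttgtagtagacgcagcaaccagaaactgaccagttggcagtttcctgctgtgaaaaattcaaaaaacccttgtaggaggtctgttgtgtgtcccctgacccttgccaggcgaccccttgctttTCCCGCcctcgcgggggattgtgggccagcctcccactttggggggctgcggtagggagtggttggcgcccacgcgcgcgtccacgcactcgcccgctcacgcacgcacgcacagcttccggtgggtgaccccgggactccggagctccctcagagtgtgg
Pou5f1: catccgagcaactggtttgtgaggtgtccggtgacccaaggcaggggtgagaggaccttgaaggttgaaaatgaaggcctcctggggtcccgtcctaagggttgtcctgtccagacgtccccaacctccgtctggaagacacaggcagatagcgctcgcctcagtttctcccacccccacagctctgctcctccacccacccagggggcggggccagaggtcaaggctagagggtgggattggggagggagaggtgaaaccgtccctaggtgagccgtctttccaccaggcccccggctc
Asz1: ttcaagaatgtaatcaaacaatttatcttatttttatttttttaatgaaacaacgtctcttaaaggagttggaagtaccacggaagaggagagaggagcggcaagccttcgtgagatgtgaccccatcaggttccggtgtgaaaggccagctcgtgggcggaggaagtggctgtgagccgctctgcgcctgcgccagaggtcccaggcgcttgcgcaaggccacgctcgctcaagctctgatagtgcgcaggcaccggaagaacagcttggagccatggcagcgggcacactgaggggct
Hormad1: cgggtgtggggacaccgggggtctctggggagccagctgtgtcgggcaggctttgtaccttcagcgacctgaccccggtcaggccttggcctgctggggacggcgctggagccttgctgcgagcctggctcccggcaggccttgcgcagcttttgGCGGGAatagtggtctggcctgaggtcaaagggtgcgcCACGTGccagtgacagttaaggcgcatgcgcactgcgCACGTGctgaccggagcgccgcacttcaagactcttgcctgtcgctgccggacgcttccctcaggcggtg
Ddx4: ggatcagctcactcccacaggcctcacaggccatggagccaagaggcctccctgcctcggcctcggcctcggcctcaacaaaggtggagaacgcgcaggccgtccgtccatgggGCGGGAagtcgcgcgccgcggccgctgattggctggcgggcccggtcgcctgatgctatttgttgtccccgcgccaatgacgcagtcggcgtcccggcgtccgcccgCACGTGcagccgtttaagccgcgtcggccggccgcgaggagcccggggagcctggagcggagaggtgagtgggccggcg
Prm1: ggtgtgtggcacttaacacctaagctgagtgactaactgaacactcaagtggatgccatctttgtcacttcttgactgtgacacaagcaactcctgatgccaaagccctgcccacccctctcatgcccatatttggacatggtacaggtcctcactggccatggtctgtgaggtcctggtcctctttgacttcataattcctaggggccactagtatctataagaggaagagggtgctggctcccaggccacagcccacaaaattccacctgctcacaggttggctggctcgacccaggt
Tex12: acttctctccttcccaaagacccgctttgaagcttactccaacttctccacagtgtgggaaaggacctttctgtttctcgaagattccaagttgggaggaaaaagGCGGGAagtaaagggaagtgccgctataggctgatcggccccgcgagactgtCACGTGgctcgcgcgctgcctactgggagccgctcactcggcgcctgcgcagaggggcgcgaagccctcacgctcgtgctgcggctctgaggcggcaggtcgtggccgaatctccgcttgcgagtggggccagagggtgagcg

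The Tex12 promoter held 26 CG dinucleotides (ratio 0.91) with 1 match to each motif, and Hormad1 held 24 (0.71) with 1 TCCCGC and 2 CACGTG matches. Asz1 had 17 (0.78) and neither motif. Ddx4 had 38 (0.98), the highest number of the 7 printed, and 1 match to each motif, yet H3K27me3 and H3K4me3 regions were listed for it. Tex14 had 20 (0.69) and 1 TCCCGC match, Pou5f1 had 11 (0.37) and Prm1 had 1 (0.05), the last pair without a match to either motif. CpG content thus varied widely within the genes with H3K27me3. Among those, the 10 matched genes that also had H3K4me3 had a median ratio of 0.70 and the 14 without H3K4me3 a median of 0.49, against 0.62 and 0.18 for all protein-coding genes in these classes.

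**Figure D3:**
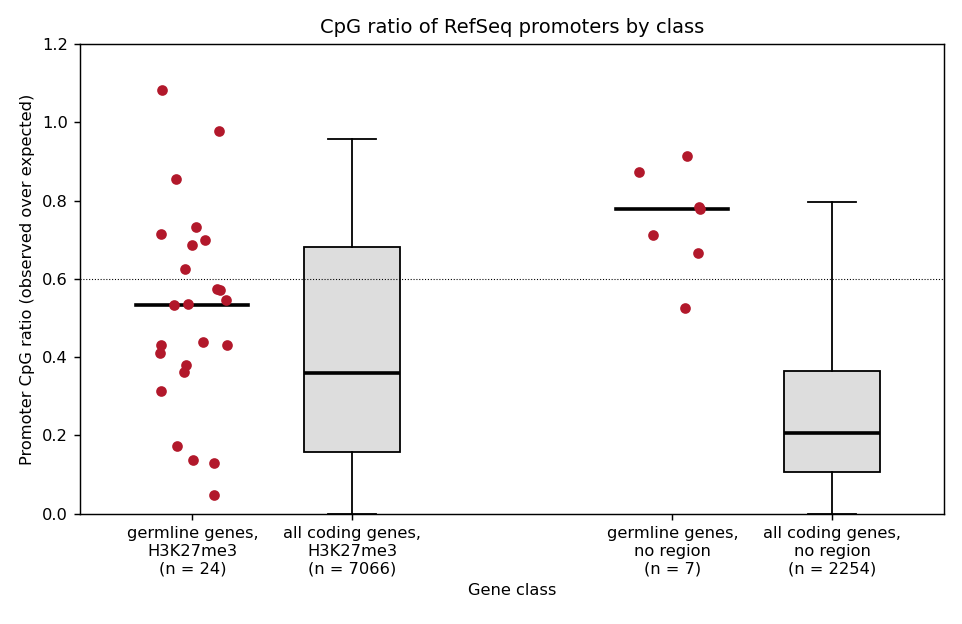
The promoter CpG ratio (vertical axis) of the matched germline genes as points, with a line at the median, beside box plots of all protein-coding genes of the same class, with the 25th, median and 75th percentiles and whiskers at the 5th and 95th. The 7 germline genes with no region had a median of 0.78, against 0.21 for all protein-coding genes with no region, and the dotted line marks a ratio of 0.6.

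Of the 5 genes of the synaptonemal complex, the protein zipper that joins paired chromosomes, 3 had no region, against 13.3% of all protein-coding genes. Among 7 further genes of this complex and of meiotic telomeres, 0 were without a region. Sycp1, the zipper's transverse filament, Sycp3, a lateral element protein, and Tex12, a central element protein, had none. Syce1, another central element gene, had H3K27me3 alone on chromosome 7 (mm9, 147971501 to 147980800), 9.3 kb wide with a score of 2.17, and 8.70% of listed H3K27me3 regions scored lower. Sycp2, the partner of Sycp3 in the lateral element, had the weakest H3K27me3 region of all 29 genes, 4.2 kb wide on chromosome 2 (178139901 to 178144100) with a score of 2.10, close to the lowest listed score of 2. Its H3K4me3 region, with a score of 7.56, was also listed under Ppp1r3d and 9030418K01Rik. Hormad1, an axis protein that monitors pairing, had no region, and its relative Hormad2 had H3K27me3 alone over 4.6 kb of chromosome 11 (4338901 to 4343500) with a score of 2.17. The axis and zipper genes with H3K27me3 alone therefore lay near the low end of the list.

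Both meiotic cohesin genes, whose products hold sister chromatids together, had H3K27me3 and H3K4me3, a pair listed at 24.2% of all protein-coding genes. At Rec8 the H3K27me3 region was 5.4 kb wide on chromosome 14 (mm9, 56235301 to 56240700) with a score of 2.90, and the H3K4me3 region scored 2.25. At Smc1b H3K27me3 extended over 58.6 kb of chromosome 15 (84961501 to 85020100) with a score of 4.66, and 75.2% of listed regions scored lower. That region and the H3K4me3 region of Smc1b (score 2.82) were also listed under the neighbouring Ribc2.

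The recombination genes were mixed. Spo11, which makes the DNA breaks that start meiotic recombination, was the 1 germline gene with H3K4me3 alone (2.33% of the 43, against 2.68% of all protein-coding genes), with a score of 2.08, and 1.37% of listed H3K4me3 regions scored lower. Dmc1, the strand-exchange protein of meiosis, had H3K27me3 alone over 4.9 kb of chromosome 15 (mm9, 79432601 to 79437500) with a score of 2.93. Msh5 had a 5.2 kb H3K27me3 region on chromosome 17 (35184201 to 35189400) with a score of 2.96 and an H3K4me3 region with a score of 3.56, each also listed under Clic1. Msh4, which acts with Msh5 to stabilise crossovers, had H3K4me3 (8.14) and Pol II (2.09) without H3K27me3. Tex15, which is needed for meiotic recombination in males, had no region.

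In the piRNA pathway, which silences transposons in germ cells with small RNAs, 5 of 8 genes had H3K27me3 and 3 had no region, against 42.5% and 13.3% of all protein-coding genes. Among 10 further genes of the pathway, 4 had H3K27me3 and 1 had no region, both near those shares. Tdrd6, a tudor protein of the germ granules, had the highest H3K27me3 score of the genes with a region of their own, 8.65, over 20.8 kb of chromosome 17 (mm9, 43751001 to 43771800), and 94.8% of listed regions scored lower. Its H3K4me3 region scored 4.72. Tdrd9, a tudor helicase, had a score of 4.58 over 42.7 kb of chromosome 12 (113206001 to 113248700), a region also listed under BC048943 and 2010107E04Rik. Tdrd1, the tudor scaffold that binds PIWI proteins, had a score of 3.08 over 26.4 kb of chromosome 19 (56899801 to 56926200). Tdrd6, Tdrd9 and Tdrd1 thus had the widest and highest-scoring regions of these 8 genes. Of the 10 further genes, Tdrd5 (7.83 over 33.5 kb) and Piwil4 (6.05 over 36.6 kb) scored above Tdrd9 and Tdrd1. Rnf17, another tudor gene, had H3K27me3 alone over 5.7 kb of chromosome 14 (57018301 to 57024000) with a score of 2.66. Piwil1, which encodes the PIWI protein MIWI, had H3K27me3 alone over 4.8 kb of chromosome 5 (129239701 to 129244500) with a score of 2.18. No region was listed for Piwil2, the gene of the PIWI protein MILI, for the piRNA factor Mael, or for Asz1, a scaffold at the mitochondria of germ cells.

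Each of the 4 germ cell RNA regulators had H3K4me3, against 68.4% of all protein-coding genes, and they divided by the other marks. Ddx4, the mouse vasa helicase gene, had H3K27me3 over 10.9 kb of chromosome 13 (mm9, 113436301 to 113447200) with a score of 2.88 and H3K4me3 with a score of 2.05, which 0.677% of listed H3K4me3 regions fell below. Nanos3, which is needed for survival of primordial germ cells, had H3K27me3 over 7.8 kb of chromosome 8 (86690101 to 86697900) with a score of 2.23. Its H3K4me3 region, with a score of 5.14, was also listed under Mir181c and Mir181d. Dazl, an RNA-binding translation factor, and Nanos2, which maintains male germ cells, had H3K27ac and no H3K27me3.

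Of the 5 factors of meiotic entry and germ cell transcription, 4 had H3K27me3 alone, against 18.2% of all protein-coding genes. None of the 5 had H3K4me3, H3K27ac or Pol II, against 68.4%, 51.5% and 41.7% of all protein-coding genes for these antibodies. Stra8, which retinoic acid induces at the entry into meiosis, had a score of 2.96 over 11.1 kb of chromosome 6 (mm9, 34862401 to 34873500), in a region also listed under Wdr91. Nobox, an oocyte homeobox gene, had a score of 3.20 over 13.3 kb of chromosome 6 (43252801 to 43266100). Figla, which activates the egg coat genes, had a score of 2.83 over 6.0 kb of chromosome 6 (85962101 to 85968100). These 3 genes lay within the lower 50% of the list by score. Sohlh2, a transcription factor of early spermatogonia and oocytes, had a score of 2.68 over 13.1 kb of chromosome 3 (54979201 to 54992300), and its partner Sohlh1 had no region.

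Genes of later germ cells and of the egg coat had H3K27me3 in 8 of 9 cases, against 42.5% of all protein-coding genes, but 3 of the 8 share 1 region. That region of 91.9 kb on chromosome 16 (mm9, 10782401 to 10874300), with a score of 4.07, was listed for Prm1 and Prm2, the protamines that pack sperm DNA, and for Tnp2, a transition protein. The 3 genes share this region with Prm3, Socs1 and A630055G03Rik and are 1 observation and not 3. Tnp1, the other transition protein gene, on another chromosome, had a score of 3.16 over 22.1 kb of chromosome 1 (73057101 to 73079200). Among the egg coat genes, Zp2 had a score of 2.80 over 6.0 kb of chromosome 7 (127286101 to 127292100). Zp3 had a score of 2.22 over 4.8 kb of chromosome 5 (136456501 to 136461300), and Zp1 had no region. Tex101, a surface protein of germ cells, had a score of 3.63 over 11.8 kb of chromosome 7 (25447701 to 25459500), in a region also listed under Gm4598. Tex14, which is required for the bridges between germ cells, had the highest score of all 29 genes, 9.07, in a 169.3 kb region of chromosome 11 (87046701 to 87216000) that was also listed under Ppm1e and Rad51c. A further Tex14 region of 14.5 kb (87220601 to 87235100) scored 3.35. Tex14 and the protamine genes therefore lay in wide domains also listed under other genes.

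All 3 pluripotency genes had H3K27me3 alone, against 18.2% of all protein-coding genes, each in a region listed under no other gene. Pou5f1, which encodes Oct4, had the third highest score of the 29, 6.66, over 31.8 kb of chromosome 17 (mm9, 35618001 to 35649800), and 88.2% of listed regions scored lower. Dppa3, also called Stella, had a score of 4.27 over 21.9 kb of chromosome 6 (122564001 to 122585900). Dppa4 had a score of 2.63 over 9.6 kb of chromosome 16 (48286101 to 48295700). Pou5f1 and Dppa3 were in the upper 50% of the list by score and Dppa4 was not.

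**Figure D4:**
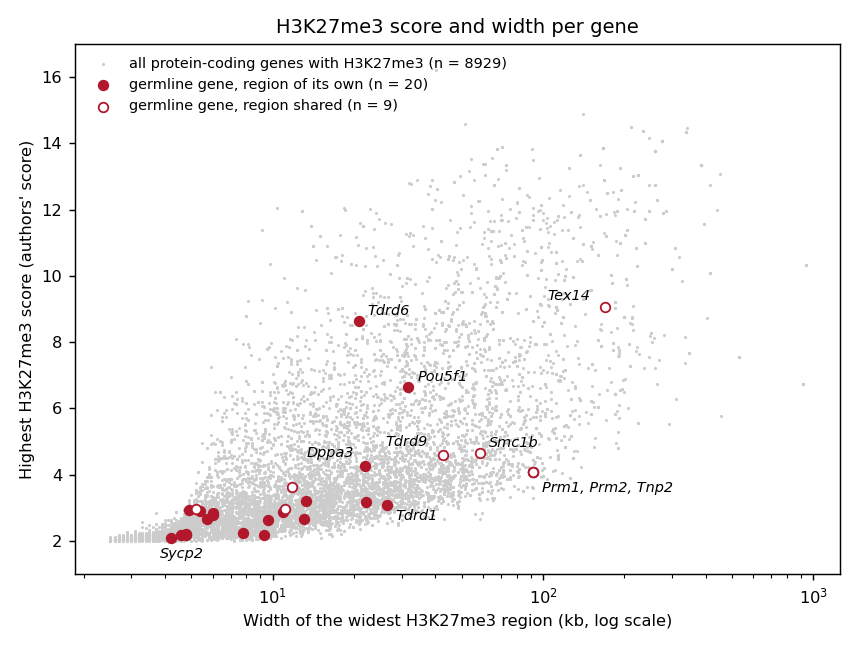
The highest H3K27me3 score of each gene (vertical axis, the authors' score) against the width of its widest H3K27me3 region (horizontal axis, kb, log scale), for all 8929 protein-coding genes with H3K27me3 in grey and the 29 germline genes in red, filled where at least 1 region was listed under no other gene (20 genes) and open where all were shared (9 genes). Of the 29 germline genes 16 lie under a score of 3, with Tex14 (9.07), Tdrd6 (8.65) and Pou5f1 (6.66) above them.

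H3K4me3 and H3K27me3, the marks of a bivalent promoter, were both listed at 11 of the 43 genes (25.6%), against 24.2% of all protein-coding genes. The share of genes with both marks thus stood near the background, but the shares within each mark did not. Of the 15 germline genes with H3K4me3, 11 also had H3K27me3, against 5091 of 14377 protein-coding genes, a higher share. Of the 29 with H3K27me3, 11 also had H3K4me3, against 5091 of 8929, a lower share. The number with both marks fell to 0, against 3.74%, when each list was limited to its upper 50%. In a sorted population, marks on the same nucleosomes and marks in different nuclei cannot be told apart. The regions of both marks overlapped by at least 1 bp at 8 of the 11 genes and were apart at 3. Overlap was not measured over all protein-coding genes with both marks, so these numbers have no background share beside them. The H3K4me3 region lay wholly inside the H3K27me3 region at Ddx4 (3.8 kb inside 10.9 kb), Tdrd6 (5.6 kb inside 20.8 kb) and Rec8 (4.2 kb inside 5.4 kb). The overlap was 6.3 kb at Tnp2, 3.5 kb at Smc1b and 3.3 kb at Msh5.

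At the remaining genes the marks lay side by side. At Tdrd1 the H3K27me3 region began 0.5 kb beyond the end of the H3K4me3 region in the direction of transcription and ran over the next 26.4 kb. At Tdrd9 the overlap was 1.5 kb and H3K27me3 likewise extended downstream, to 44.2 kb from the centre of the H3K4me3 region. The gap was 1.2 kb at Sycp2 and 4.5 kb at Nanos3, again with H3K27me3 downstream. At Tex14 the H3K4me3 region was flanked by H3K27me3 on both sides, with an overlap of 0.7 kb upstream and a gap of 0.2 kb downstream. H3K4me3 scores of the 11 genes ran from 2.05 to 8.28 with a median of 4.72. Over all 15 germline genes with H3K4me3 the median was also 4.72, against 7.32 over all protein-coding genes with H3K4me3, and 11 of the 15 lay below that value.

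**Figure D5:**
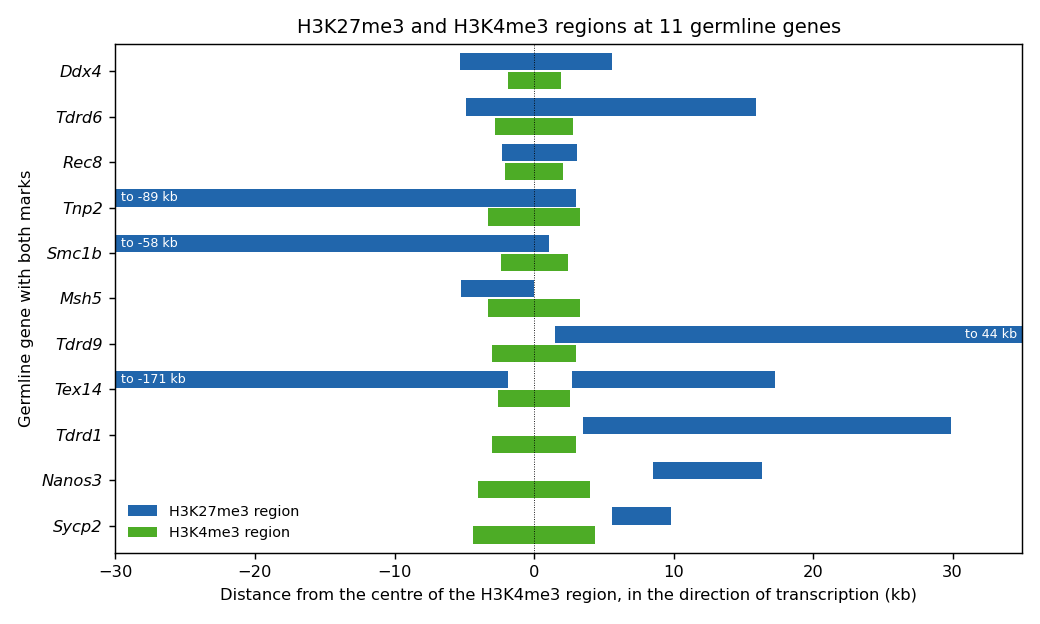
H3K27me3 regions (blue) and H3K4me3 regions (green) at the 11 germline genes with both marks, drawn to scale by distance in kb from the centre of the H3K4me3 region in the direction of transcription (horizontal axis), with the end of a region beyond the axis given in white. The H3K4me3 region lies inside H3K27me3 at Ddx4, Tdrd6 and Rec8 and beside it at Tdrd1, Nanos3 and Sycp2.

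An active mark, H3K27ac or Pol II, was listed at 7 of the 43 genes (16.3%), against 52.4% of all protein-coding genes: Dazl, Nanos2, Tdrd1, Tdrd9, Msh4, Tex14 and Tnp2. H3K4me3, H3K27ac and Pol II were together at 4 of them (9.30%), against 40.7%. The 7 genes had a median H3K4me3 score of 6.14 (3.66 to 11.5), and the 8 germline genes with H3K4me3 but neither active mark had 3.19 (2.05 to 7.56). Many of these regions were also listed under a neighbouring gene. The H3K27ac regions were shared at 4 of 6 genes, against 26.5% of protein-coding genes with H3K27ac, and the Pol II regions at 3 of 5, against 28.6% of those with Pol II. The H3K4me3 regions were shared at 9 of 15 genes, against 25.8%. For H3K27me3 the number was 9 of 29, against 31.7%, which is near the background. Counting only regions listed under no other gene, 6 germline genes had H3K4me3, 2 had H3K27ac and 2 had Pol II. These were 14.0%, 4.65% and 4.65% of the 43, against 50.7%, 37.8% and 29.8% of all protein-coding genes.

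The shared active regions were those of Nanos2, Tdrd9, Tex14 and Tnp2, together with H3K4me3 at Msh4. At Nanos2 the H3K4me3 region of chromosome 7 (mm9, 19573701 to 19594000) had a score of 11.5 and was also listed under Mypop and Irf2bp1, and 95% of listed H3K4me3 regions scored lower. Its H3K27ac region (19573801 to 19580200) scored 6.26 and its Pol II region (19573901 to 19579700) scored 3.52, both also listed under Mypop. The Nanos2 promoter in the RefSeq table held 0 CG dinucleotides. At Tex14 H3K4me3 (87215301 to 87220400) scored 3.68, H3K27ac (87215501 to 87220300) scored 3.06 and Pol II (87215701 to 87220200) scored 2.33, all also listed under Rad51c, a DNA repair gene used in somatic cells. At Tnp2 H3K4me3 (10782101 to 10788700) scored 6.14 and was also listed under Prm3 and Socs1. Its H3K27ac (10783501 to 10787600) scored 2.49 and Pol II (10783701 to 10786900) scored 2.06, both also listed under Socs1, a cytokine signalling inhibitor. At Tdrd9 H3K4me3 on chromosome 12 (113201501 to 113207500) scored 5.76 and H3K27ac (113202301 to 113207500) scored 4.15, both also listed under 2010107E04Rik. Which of the paired genes each shared region belongs to was not tested.

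Active regions listed for a germline gene alone were found at Dazl, Tdrd1 and Msh4. Dazl had H3K4me3 on chromosome 17 (mm9, 50429701 to 50434800) with a score of 3.66 and H3K27ac (50429601 to 50434600) with a score of 3.62, and 14.7% and 39.6% of the regions of these lists scored lower. No Pol II or H3K27me3 region was listed for Dazl. Tdrd1 had all 4 antibodies, with H3K4me3 (56893301 to 56899300) at 8.28, H3K27ac (56894001 to 56899000) at 3.96 and Pol II (56894201 to 56899000) at 2.57, none listed under another gene. Its H3K27ac score was near the middle of the list, with 48.2% of regions scoring lower. At Msh4 the Pol II region of chromosome 3 (153566801 to 153570000) scored 2.09, near the lowest listed score, and the H3K4me3 region (score 8.14) was also listed under Rabggtb, Snord45b and Snord45c. Tdrd1 was thus the sole germline gene of the 43 with H3K4me3, H3K27ac and Pol II in regions listed under no other gene. Its neighbour Ccdc186 had no listed region, and the lists do not say whether its transcripts were searched. Whether the active regions belong to Tdrd1 or to a neighbour was not tested.

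The chromatin of adjacent genes was compared between the classes through the nearest protein-coding gene on each side. At least 1 neighbour had H3K27me3 at 22 of the 29 germline genes with H3K27me3 (75.9%) and 4 of the 10 with no region (40%), against 81.8% and 47% of all protein-coding genes in these classes. Where a gene shares its H3K27me3 region with a neighbour, as Smc1b does with Ribc2, both count. A gene with no region cannot share one, so this contrast was partly fixed by how the classes were made. At least 1 neighbour had H3K27ac or Pol II at 19 of 29 (65.5%) and 7 of 10 (70%), against 60.8% and 45.5%. Piwil2, Sycp3 and Tex15, all without a region, each lay between neighbours that had H3K4me3, H3K27ac and Pol II, with H3K27me3 as well at 1 neighbour of Piwil2. Both neighbours of Sycp1, by contrast, had no region either. How often both neighbours are alike in these ways was not measured over all protein-coding genes, so these examples have no background share.

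In a wider set of 72 further germline genes, H3K27me3 was again listed more often than H3K27ac or Pol II. H3K27me3 was listed at 45 (62.5%), H3K4me3 at 41 (56.9%), H3K27ac at 20 (27.8%) and Pol II at 18 (25%), against 42.5%, 68.4%, 51.5% and 41.7% of all protein-coding genes for these antibodies. No region was listed for 7 (9.72%), below the 13.3% of all protein-coding genes, whereas the 43 genes stood above it at 23.3%. Whether these shares differ from those of the 43 genes was not tested. The highest H3K27me3 scores were at Tfap2c (14.2), Prdm1 (11.7), Lhx8 (10.4), Pramel1 (9.96), Prdm14 (9.62) and Meioc (9.20). Tfap2c, Prdm1 and Prdm14 specify primordial germ cells and Lhx8 is an oocyte factor that also acts in the forebrain. Among the genes with the highest H3K27ac scores were Nanos1 (7.14), Ddx25 (5.62), Sun1 (3.58), Gdf9 (3.47) and Tdrkh (3.30), of which Sun1 also works in somatic cells. Both further meiotic cohesin genes, Stag3 (H3K27me3 score 7.76) and Rad21l (3.68), were singled out after their values were seen. They had H3K4me3 and H3K27me3 without an active mark, as Rec8 and Smc1b did. Both marks together were listed at 24.2% of all protein-coding genes, and the share of these without an active mark was not measured. Of 20 further germ cell factors 16 had H3K27me3, against 42.5% of all protein-coding genes, and of 17 further recombination genes 8 did, which is near that share.

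The genes of the proteins known to silence germline genes in somatic cells mostly had active marks in these nuclei. Of 22 such genes, 22 had H3K4me3, 17 had H3K27ac, 16 had Pol II and 5 had H3K27me3, against 68.4%, 51.5%, 41.7% and 42.5% of all protein-coding genes for these antibodies. The highest H3K27ac scores were at Dnmt3a (14.9), a DNA methyltransferase, Cbx3 (9.73), Ehmt2 (7.98), an H3K9 methyltransferase, Yaf2 (6.84), Hdac2 (6.51) and Ring1 (6.07). H3K27me3 was listed at E2f6 (6.66), Uhrf1 (5.11), Dnmt3b (3.27), Max (3.20) and Setdb1 (2.45), of which E2f6 and Max had all 4 antibodies and Uhrf1, Dnmt3b and Setdb1 had H3K4me3 and H3K27me3 only.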

How the data were processed

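Neuronal nuclei of the striatum, sorted on NeuN, were profiled with 4 antibodies and an input, 5 samples in all, grouped by the antibody in the labels. The submitters' processing notes name the tools Bowtie 0.12.7 and MACS 1.4 and the build mm9, without saying what each was used for. The authors deposited 1 list per antibody of regions, each with a transcript, a gene symbol and a score over input. The scale of this score is not stated, so scores were compared within 1 list only. The lists' names give 3 kb as the reach on either side of a start site. Read depth is unknown.

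A germline gene had a mark where its symbol stood in that list, its score is that of its highest region and its width that of its widest. For all protein-coding genes, symbols, older symbols and transcript accessions were matched to a RefSeq gene table (GRCm38.p6), which also gave the neighbours. Region positions are mm9, counted from 1. Promoter sequences are RefSeq's (GRCm38.p6). For a gene with several entries the CpG ratio is the median, and a motif counts if it is in any entry. Intervals are exact Clopper-Pearson. With 1 library per antibody no test was run. Alternatives kept only the upper 50% of scores, the same number of regions per list, regions up to 20 kb, or unshared regions.

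All 43 genes are named. Of other germline and silencing genes, up to 6 with the highest H3K27me3 or H3K27ac score are named, and 1 gene that this rule would name is not reported here. Of 74 further germline symbols, 2 were not in the gene table. The genes and lists were chosen with earlier results of these data known. The motifs, the limits of 0.6 for the CpG ratio and 3 for the score, the view from promoters to marks, the sharing and overlap of regions and the neighbours were chosen after values had been seen. Matching, CpG and motif code was tested on simulated data. The work used matplotlib 3.10.9, scipy 1.17.1, pandas 2.3.3 and numpy 2.4.6 under Python 3.11.15.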

Additional observations from a re-analysis of the deposited data

How the results depend on the processing

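No paired analysis was possible because each antibody had 1 library, and for the same reason no library could be left out. When each list was limited to its upper 50%, 4 germline genes had H3K4me3 (9.30%, against 37.0% of all protein-coding genes). H3K27me3 stood at 10 (23.3%, against 25%), H3K27ac at 2 (4.65%, against 26.1%) and Pol II at 1 (2.33%, against 21.2%). No region was left at 29 (67.4%, against 38.3%). H3K4me3 with H3K27me3 stood at 0, against 3.74%, and H3K4me3, H3K27ac and Pol II at 1 (2.33%, against 16.7%). H3K27me3 without H3K4me3 stood at 10 (23.3%, against 21.3%). The wider contrast with the whole lists (41.9%, against 18.2%) was thus not seen in this setting. With lists of 7799 regions each, 4 had H3K4me3 (9.30%, against 43.4% of all protein-coding genes). H3K4me3 with H3K27me3 stood at 1 (2.33%, against 8.31%), and H3K4me3, H3K27ac and Pol II at 2 (4.65%, against 34.1%). H3K27me3 stood at 28 genes (65.1%, against 41.0%) and H3K27me3 without H3K4me3 at 27 (62.8%, against 32.7%). The H3K4me3 list is then shortened the most. With regions up to 20 kb, 19 had H3K27me3 (44.2%, against 25.1%) and 6 had H3K4me3 with H3K27me3 (14.0%, against 13.3%). With regions listed under no other gene, 6 had H3K4me3 (14.0%, against 50.7%), 2 had H3K27ac (4.65%, against 37.8%) and 2 had Pol II (4.65%, against 29.8%). No region was left at 20 (46.5%, against 34.2%). H3K4me3 with H3K27me3 stood at 4 (9.30%, against 15.7%), and H3K4me3, H3K27ac and Pol II at 1 (2.33%, against 27.8%). H3K27me3 stood at 20 genes (46.5%, against 29.0%). Requiring an overlap of 0.5 of the narrower region left 6 of the 11 genes with H3K4me3 and H3K27me3, a number without a background share. Older symbols and accessions changed no count.

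The difference in median CpG content, H3K27me3 minus no region, was -2.00 CG per 100 bases in place of the ratio, and -0.19 in ratio with the upper 50% of regions. Its sign was the same in both. With the upper 50%, however, the class with no region grew from 10 to 29 of the 43 genes. The class with H3K27me3 fell from 29 to 10, so other classes were compared. With all symbols of the 4 lists as background, H3K4me3 was listed at 78.3%, H3K27me3 at 49.2%, H3K27ac at 58.6% and Pol II at 47.6%. With no reads or replicates, weak regions near the lowest listed score of 2 cannot be separated from background.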
